A study of Mus musculus with 10 samples.

Results

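The IGF system and the growth hormone targets of the liver were described here by 10 genes, which were chosen by name from the 54532 genes of the deposited table. They were the ligand Igf1, its carrier Igfals, the binding proteins Igfbp1, Igfbp2, Igfbp3 and Igfbp4, the growth hormone receptor Ghr, its transcription factor Stat5b and the feedback genes Socs2 and Cish. Expression was measured by bulk RNA sequencing of liver in 10 mice, 5 labelled ASK1f/f and 5 labelled ASK1+hep, all on a C57BL/6J background and aged 6 weeks at the start of 7 weeks of high fat diet (HFD), and all fasted for 5 h before tissue collection. ASK1+hep mice carry a murine ASK1 cDNA in the ROSA26 locus behind a lox-stop-lox cassette, which Cre under the albumin promoter (Alb-Cre) opens in hepatocytes. ASK1f/f mice were control littermates with the same floxed construct. Values are FPKM, that is, reads per gene scaled by gene length and a library size. This size, recovered from the deposited values, was 0.981 to 1.06 of the reads on genes in ASK1f/f livers and 0.890 to 1.06 in ASK1+hep livers. As it was below the reads on genes in some livers, it was not the total of mapped reads. Levels of different genes can be compared only as far as the gene lengths match the transcripts present.

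Growth hormone binds its receptor GHR on hepatocytes, and the kinase JAK2 then activates STAT5B, which switches on Igf1, Igfals, Socs2 and Cish. IGF1 from the liver circulates in a complex with IGFBP3 or a related binding protein and the acid-labile subunit encoded by Igfals, whereas SOCS2 and CIS, the product of Cish, dampen the receptor. Igfbp1 and Igfbp2 encode binding proteins outside that complex, whose liver expression is known to be held down by insulin.

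Promoter sequence is shown for 4 of the genes, because the transcription factors named above are known to read short motifs there. RefSeq promoter windows on GRCm38.p6, from 250 bases before to 50 bases after a start, existed for 9 of the 10 genes, and Socs2 is named only. The motif TTCNNNGAA, the core of STAT binding sites, reads the same on both strands. It was found in 3 of the 14 windows of these genes and in 8.30% of the 32851 windows in all. Cish held it at positions 1 and 12 counted from the start, without overlap between the matches. Igfals held it at -58 and, in another window, at -236. A further Igfals window, chr17:24878497-24878796, holds the start of the gene in the deposited table (24878770) and had no match. The stretches below are on the plus strand, with the motif in capitals.
Cish, chr9:107296654-107296683: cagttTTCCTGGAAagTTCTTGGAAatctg
Igfals, chr17:24878163-24878192: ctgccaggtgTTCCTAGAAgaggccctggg

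The Igfbp1 promoter is shown for CAAAACA, a motif of FOXO-type factors, which was found on the plus strand at -108 and, on either strand, in 6.28% of all windows. The capitals mark it.
Igfbp1, chr11:7197657-7197716: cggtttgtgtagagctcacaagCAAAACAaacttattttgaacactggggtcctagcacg

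For Igfbp2, the 1 gene of the 10 at an unadjusted p under 0.05 in the comparison of genotypes, the last 100 bases before the start are shown with CpG dinucleotides in capitals. The 250 bases before this start had a GC content of 67.2% and 14 CpG, against medians of 52.4% and 6 over all windows. The other Igfbp2 window had 56.4% and 11. This was not particular to Igfbp2, as windows of Stat5b (82.0% and 40), Igfbp3 (73.2% and 32) and Igfbp4 (69.2% and 22) were higher in both.
Igfbp2, chr1:72824380-72824479: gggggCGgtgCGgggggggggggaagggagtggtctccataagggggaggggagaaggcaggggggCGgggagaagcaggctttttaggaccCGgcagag
Neither GTAAACA, another forkhead motif, nor TGATGNAA, read by stress-related factors of the ATF4 and C/EBP families, was found in the windows of Igfbp1 or Igfbp2, and Igfals held GTAAACA on the minus strand at -242. GTAAACA stood in 3.65% and TGATGNAA in 3.97% of all windows, searched on both strands. Such matches describe the sequence and not the binding of a factor.

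Libraries held 14411830 to 16056102 reads on genes in ASK1f/f livers and 13367742 to 16163378 in ASK1+hep livers. The hepatocyte genes Alb, Ttr, Apoa1, Cps1 and Hnf4a were detected in every liver, with summed levels of 28580 to 39840 FPKM in ASK1f/f livers and 33790 to 42980 FPKM in ASK1+hep. The comparison of genotypes used limma on log2(FPKM + 1) with Benjamini-Hochberg adjustment over 13306 genes, and all 10 genes described here passed the filter. The targeted gene Map3k5, which encodes ASK1, was at 4.71 to 6.88 FPKM in 4 ASK1f/f livers, at 19.8 FPKM in ASK1f/f replicate 5 and at 7.68 to 16.4 FPKM in ASK1+hep livers. In Map3k5, replicate 5 of the libraries labelled ASK1f/f went against its label, and values without it are given for Igfbp2, Igfals, Igfbp4 and Elovl3. Its level of the hepatokine gene Fgf21 was 3.21 FPKM. This lay within the 2.46 to 4.74 FPKM of ASK1f/f livers and below the 7.40 to 30.1 FPKM of ASK1+hep livers. Whether the label is right was not tested. ASK1+hep replicate 3 stood apart from the rest, at a distance of 51.1 from the median of its group over all genes tested, against 19.5 to 37.4 in the other 9 libraries (square root of summed squared log2 differences).

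No gene of the group changed between the genotypes after adjustment. In ASK1+hep livers 3 of the 10 were higher and 7 lower, and 0 had an adjusted p at or below 0.05 in limma, as was the case for 0% of all genes tested. The direction held in all 19 alternatives, which included leaving out each liver, for 5 of them, Igfals, Igfbp2, Ghr, Cish and Stat5b. Alternatives that changed only the filter, or added a covariate shared equally by both genotypes, could not change a log2 fold change. They therefore did not test the direction. At an unadjusted p under 0.05 there was 1 gene, Igfbp2, against 5.77% of all genes tested. Groups did not overlap for 0 of the 10 genes and for 0.864% of all genes tested. The median log2 fold change of the 10 genes was -0.09, beside -0.0065 over all genes tested.

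**Figure D1:**
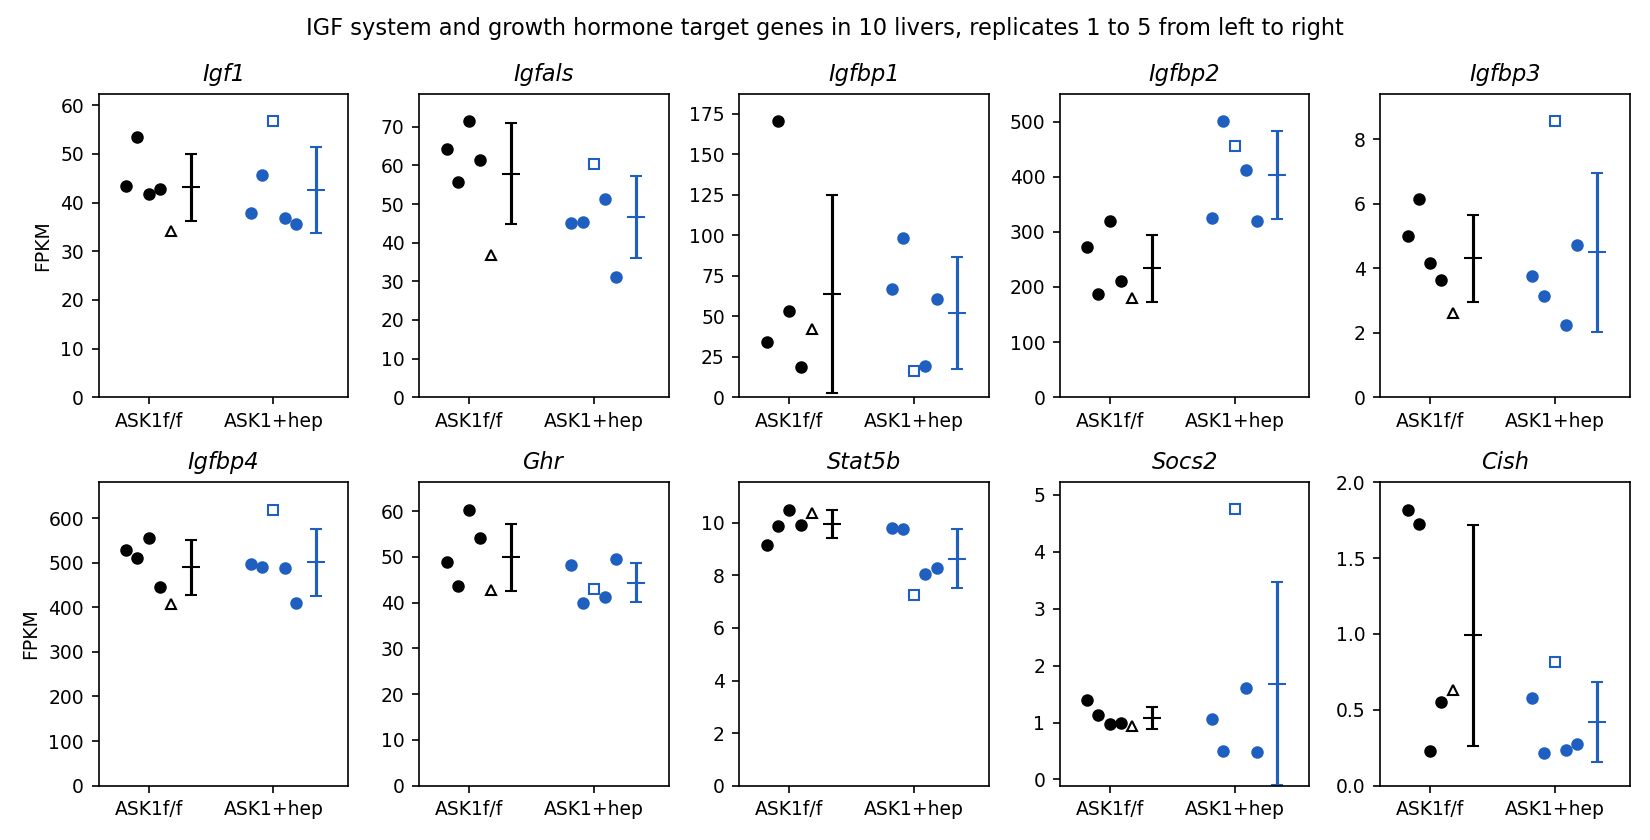
FPKM of the 10 genes in the 5 ASK1f/f (black) and 5 ASK1+hep (blue) livers, each panel with its own linear axis. Symbols are single livers in replicate order, bars are mean and SD, the open triangle is ASK1f/f replicate 5 and the open square ASK1+hep replicate 3; Igfbp2 is the gene in which 4 of 5 ASK1+hep livers lay above all ASK1f/f livers.

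Igfbp2, whose product binds IGF1 and IGF2 in the circulation, had a higher mean in ASK1+hep livers. Its level was 272, 186, 320, 210 and 179 FPKM in ASK1f/f replicates 1 to 5. In ASK1+hep replicates 1 to 5 it was 325, 501, 456, 412 and 319 FPKM. The groups met at a single point, where ASK1f/f replicate 3 exceeded ASK1+hep replicate 5 by less than 1 FPKM. The means were 233.5 ± 60.6 and 402.6 ± 79.8 FPKM (SD, n = 5 each), a 1.72-fold difference. On the log2 scale the difference was 0.80, with a standard error of 0.20 and a 95% interval from 0.37 to 1.23. Its unadjusted p from limma was 0.00172, rank 27 of all genes tested, and its adjusted p was 0.712. The exact two-sided permutation test over the 252 splits into 5 and 5 gave p = 0.0159, where 0.00794 is the smallest value possible. Without ASK1f/f replicate 5 the log2 fold change was 0.71, and without ASK1+hep replicate 3 it was 0.75. In bulk samples, a different number of cells of a type and a different amount of RNA per cell cannot be told apart.

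Marker levels were set beside this difference. The summed adipocyte list (Adipoq, Plin1 and Cidec) ranged from 3.96 to 52.9 FPKM in ASK1f/f livers and from 11.9 to 132.7 FPKM in ASK1+hep, but the defining genes Adipoq and Plin1 were at most at 0.0526 and 0.0468 FPKM in any liver, so that nearly all of it was Cidec, a lipid droplet gene. The summed red cell list (Hba-a1, Hbb-bs and Alas2) ranged from 307.9 to 449 FPKM in ASK1f/f livers and from 287 to 954 FPKM in ASK1+hep. Their part in the Igfbp2 difference was not tested. The summed Kupffer cell, endothelial, stellate cell, cholangiocyte, lymphocyte and neutrophil lists overlapped between the genotypes as well.

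The ligand Igf1, the main IGF made by adult liver, was at nearly the same mean level in both genotypes. It was at 43.5, 53.4, 41.7, 42.8 and 34.2 FPKM in ASK1f/f livers, in the order of replicates 1 to 5, and 37.8, 45.7, 56.7, 36.9 and 35.5 FPKM in ASK1+hep livers. In FPKM, the highest liver was ASK1+hep replicate 3 and the lowest ASK1f/f replicate 5. The spread within each genotype was thus wider than the distance between the genotypes. The means were 43.1 ± 6.84 and 42.5 ± 8.87 FPKM (SD, n = 5 each). On the log2 scale they differed by -0.03 (ASK1+hep minus ASK1f/f, standard error 0.15), and the 95% interval from -0.36 to 0.31 corresponds to 0.778- to 1.24-fold. With 4848 to 8326 reads per liver, counting error was small beside these differences between mice.

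Igfals, which encodes the acid-labile subunit that holds IGF1 in the circulation, had a lower mean in ASK1+hep livers without passing the test. Its level was 64.2, 55.6, 71.5, 61.4 and 36.7 FPKM in ASK1f/f livers (replicates 1 to 5) and 45.0, 45.4, 60.4, 51.3 and 31.1 FPKM in ASK1+hep livers. The groups overlapped, as ASK1f/f replicate 5 lay below 4 ASK1+hep livers and ASK1+hep replicate 3 lay above ASK1f/f replicates 2 and 5. The means were 57.9 ± 13.1 and 46.7 ± 10.7 FPKM (SD, n = 5 each), and the log2 fold change was -0.30 with a 95% interval from -0.74 to 0.14 and an adjusted p of 0.812 in limma. Without ASK1f/f replicate 5, the library that went against its label, this value was -0.46, with an unadjusted p of 0.0258 and an adjusted p of 0.780 in limma, within a range of 0.659 to 0.998 over all alternatives. Without ASK1+hep replicate 5, the liver with the lowest Igfals level, it was -0.17, with an unadjusted p of 0.381.

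Igfbp1, a binding protein gene known to respond to insulin and fasting, varied more between single livers than any other of the 10 genes within ASK1f/f, relative to the mean. It was at 34.3, 170.5, 53.2, 18.4 and 42.3 FPKM in ASK1f/f livers, in the order of replicates 1 to 5, and 66.7, 98.1, 16.0, 19.4 and 60.9 FPKM in ASK1+hep livers. The highest liver exceeded the lowest 10.7-fold, and both genotypes held livers under 20 FPKM. The coefficient of variation was 95.7% in ASK1f/f and 66.2% in ASK1+hep. The log2 fold change of -0.19 had a 95% interval from -1.5 to 1.13, so that differences of more than 2-fold in either direction lay within it. Without ASK1f/f replicate 2 the value was 0.27.

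Igfbp3 and Igfbp4 encode further binding proteins, IGFBP3 being the main carrier of IGF1 in blood. Igfbp3 ranged from 2.59 to 6.15 FPKM in ASK1f/f livers and from 2.23 to 8.56 FPKM in ASK1+hep, with its highest value in ASK1+hep replicate 3. Igfbp4 ranged from 406 to 556 FPKM and from 410 to 619 FPKM, again with its highest FPKM in ASK1+hep replicate 3. Their log2 fold changes were -0.01 (95% interval -0.60 to 0.57) and 0.03 (95% interval -0.30 to 0.35), and both groups of values overlapped almost fully. Igfbp4 was at -0.036 without ASK1f/f replicate 5 and at -0.051 without ASK1+hep replicate 3, and Igfbp3 at -0.24 without the latter.

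The receptor gene Ghr was at 48.8, 43.6, 60.3, 54.0 and 42.8 FPKM in ASK1f/f livers, in the order of replicates 1 to 5, and 48.2, 39.8, 43.0, 41.3 and 49.6 FPKM in ASK1+hep livers. Only the highest ASK1f/f livers, replicates 3 and 4, lay outside the range of ASK1+hep. The log2 fold change was -0.16 with a 95% interval from -0.42 to 0.11 and an adjusted p of 0.815 in limma. It was -0.089 without ASK1f/f replicate 3, the liver with the highest Ghr level.

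Stat5b, the transcription factor that carries the growth hormone signal to the nucleus, showed the smallest spread of the 10 genes within ASK1f/f, relative to the mean. Its level was 9.15, 9.88, 10.5, 9.93 and 10.4 FPKM in ASK1f/f livers (replicates 1 to 5) and 9.79, 9.76, 7.25, 8.04 and 8.28 FPKM in ASK1+hep livers. ASK1+hep replicates 3, 4 and 5 lay below every ASK1f/f liver, whereas replicates 1 and 2 lay within their range. The means were 9.97 ± 0.533 and 8.63 ± 1.12 FPKM (SD, n = 5 each). The log2 fold change was -0.19 (95% interval -0.42 to 0.03) and the adjusted p 0.812 in limma. The exact two-sided permutation test gave p = 0.0476. It was run on each of the 10 genes, and Igfbp2 was also under 0.05, at 0.0159. For this test the share over all genes was not computed. Without ASK1+hep replicate 3 the log2 fold change was -0.14.

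The feedback genes Socs2 and Cish, both targets of STAT5, were the genes of lowest level. Socs2 was at 1.40, 1.13, 0.975, 0.986 and 0.934 FPKM in ASK1f/f livers, in the order of replicates 1 to 5, and 1.07, 0.503, 4.75, 1.61 and 0.487 FPKM in ASK1+hep livers. The ASK1f/f livers lay close together, while the ASK1+hep livers held both the highest and the lowest values of all 10. The log2 fold change was 0.17 (95% interval -0.50 to 0.84) with ASK1+hep replicate 3 and -0.16 without it, so that 1 library set the direction.

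Cish was at 1.82, 1.72, 0.229, 0.553 and 0.628 FPKM in ASK1f/f livers, in the order of replicates 1 to 5, and 0.576, 0.217, 0.814, 0.232 and 0.271 FPKM in ASK1+hep livers. ASK1f/f replicates 1 and 2 were more than 2-fold above every other liver, and the remaining livers overlapped. The log2 fold change was -0.43 (95% interval -0.91 to 0.06) with an adjusted p of 0.812 in limma, and -0.28 without ASK1f/f replicate 1. These values rest on 18 to 195 reads per liver, and the pseudocount of 1 FPKM understates the difference, which was -0.90 with a pseudocount of 0.1 FPKM. Exons of Cish overlap those of Gm17040 and Gm17041 on the opposite strand, and as the counting is not stated to use strand, reads of these genes cannot be told apart.

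**Figure D2:**
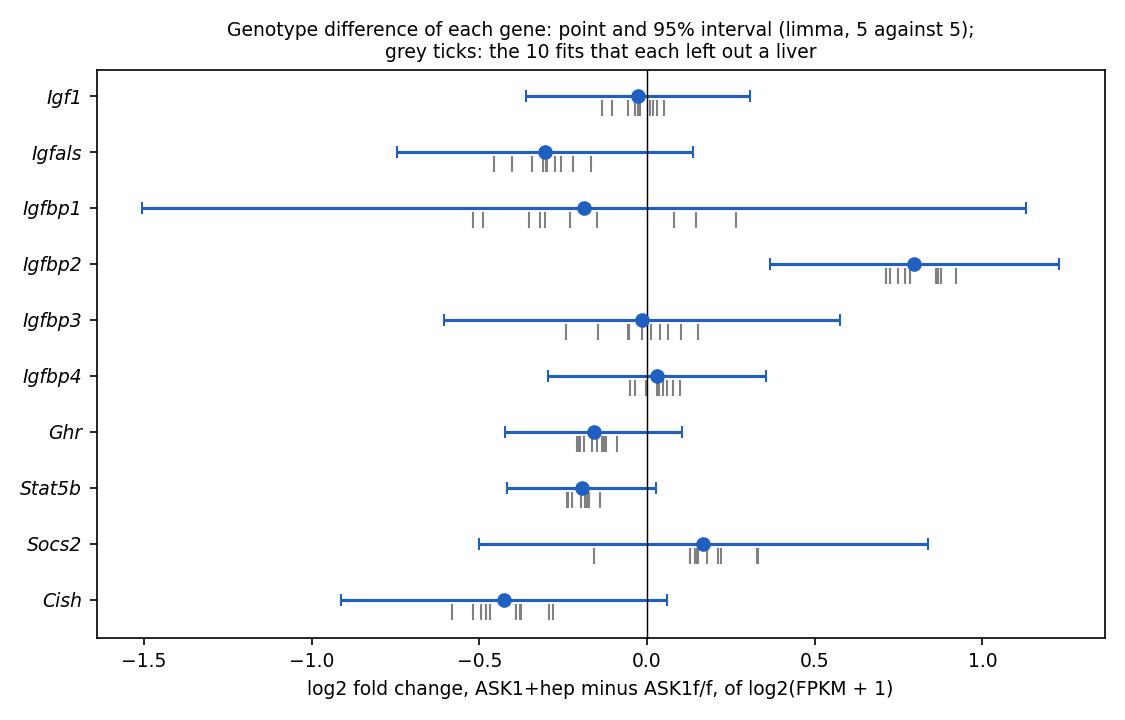
Log2 fold change (ASK1+hep minus ASK1f/f, on log2(FPKM + 1)) of the 10 genes with its 95% interval from limma, and as grey ticks the values on leaving out each of the 10 livers in turn. The interval of Igfbp2, from 0.37 to 1.23, is the one of the 10 that does not include 0, and the ticks of Socs2 lie on both sides of 0.

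Ordered by their mean FPKM over the 10 livers, the genes ran from Igfbp4 (495) and Igfbp2 (318) over Igfbp1 (58.0), Igfals (52.3), Ghr (47.1) and Igf1 (42.8) to Stat5b (9.30), Igfbp3 (4.39), Socs2 (1.39) and Cish (0.706). The ranges of neighbours overlapped except between Igfbp2 and Igfbp1, whose means differed 5.49-fold, and between Igf1 and Stat5b, whose means differed 4.61-fold. FPKM divides by the gene length in the table, which for Igf1 (9904 bases), Socs2 (9531 bases), Ghr (9053 bases) and Cish (6419 bases) was more than 2-fold that of the principal transcript in GENCODE M21 (1673, 2222, 4175 and 2850 bases). For Igfals it was shorter, at 2111 against 2625 bases. The order therefore depends on the lengths used.

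The genes lay on 6 chromosomes, with 4 of them on chromosome 11 and both Igf1 and Socs2 on chromosome 10. Igfbp1 (chr11:7197782-7202546, plus strand) and Igfbp3 (chr11:7206086-7213923, minus strand) lay close together on opposite strands, and ASK1+hep replicate 3 had the lowest Igfbp1 and the highest Igfbp3 level of the 10 livers. Igfbp2 was at chr1:72824503-72852474 on the plus strand, with 4 exons in its principal transcript. Stat5b was at chr11:100780731-100850724 on the minus strand with 19 exons. Coordinates are those of the deposited table, on GRCm38.

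Single livers differed from the rest in several of the genes at once. ASK1+hep replicate 3 held the highest of 10 FPKM values for 4 genes (Igf1, Igfbp3, Igfbp4 and Socs2) and the lowest for 2 (Igfbp1 and Stat5b). The library size behind its FPKM was 0.890 of its reads on genes, the lowest such ratio of the 10 libraries. Scaled by reads on genes instead, Igf1 was highest in ASK1f/f replicate 2 and Igfbp4 in ASK1f/f replicate 3. ASK1f/f replicate 5 held the lowest of the 5 ASK1f/f FPKM values for 7 of the 10 genes, namely Igf1, Igfals, Igfbp2, Igfbp3, Igfbp4, Ghr and Socs2. Scaled by reads on genes, Igfbp2 and Ghr were lowest in ASK1f/f replicate 2. On the log2(FPKM + 1) scale, Socs2 in ASK1+hep replicate 3 was 1.38 above its mean over the 10 livers and Igfbp1 1.43 below.

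**Figure D3:**
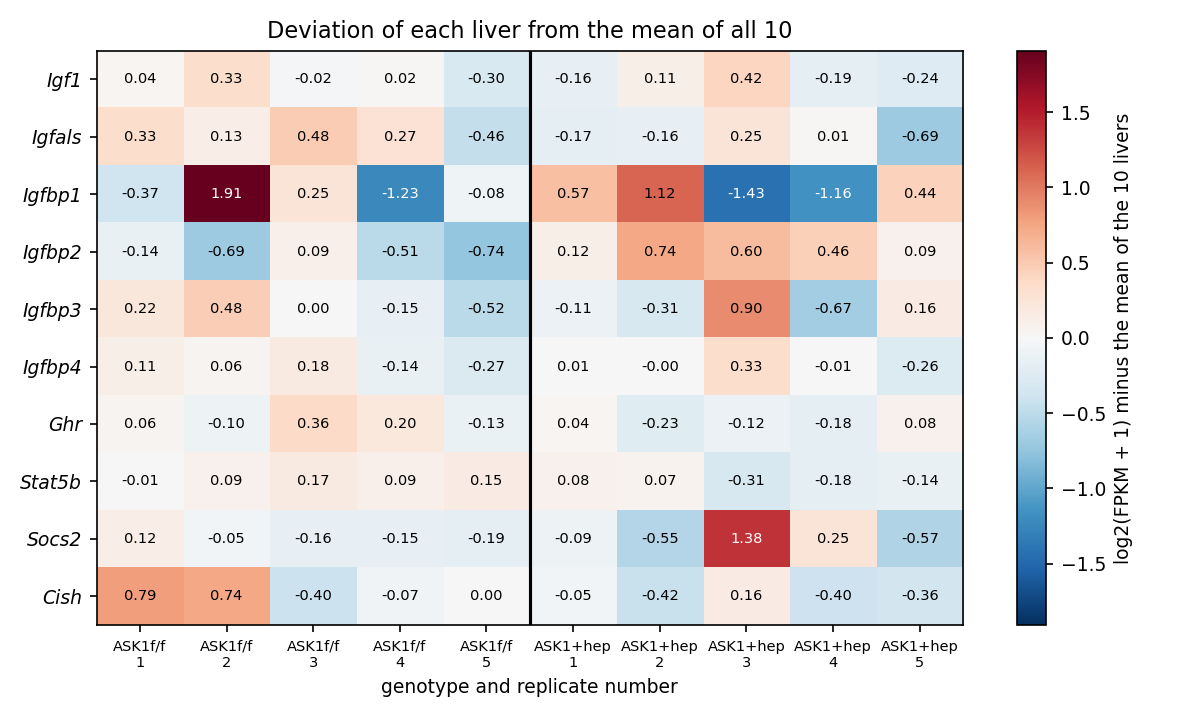
Deviation of each liver (columns, by genotype and replicate) from the mean of all 10 livers for each gene (rows), in log2(FPKM + 1), with red above and blue below the mean. Igfbp1 in ASK1f/f replicate 2 had the largest deviation, 1.91, and the row of Igfbp2 is the one with values above the mean in all 5 ASK1+hep livers.

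Correlations over the 10 livers are given as descriptions and without p, since 66 pairs were computed among the 10 genes, Map3k5 and Fgf21, and all share the scaling of their library. Igf1 and Igfals, the ligand and its carrier, had a Pearson r of 0.587 and a Spearman rho of 0.552, and r was 0.676 without the 2 livers farthest from the median of Igf1. Socs2 and Igf1 had an r of 0.569 and a rho of 0.467, and r fell to 0.063 without ASK1+hep replicate 3, on which the relation rested. Socs2 and Stat5b had an r of -0.657 and a rho of -0.455, and r was -0.139 without that library.

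Of the relations of the 10 genes with Map3k5, that of Igfals had the largest absolute r. Igfals was lower where Map3k5 was higher, with an r of -0.866 and a rho of -0.903 over the 10 livers. These pooled values include the difference between genotypes, and on deviations from the group means r was -0.832. Both include ASK1f/f replicate 5, whose Map3k5 level went against its label, and the r on deviations was not computed without it. ASK1f/f replicates 1 to 4 alone showed no clear order. The relation was picked for the size of its r. Without ASK1f/f replicates 4 and 5, the livers farthest from the median of Map3k5, the pooled r was -0.858, which still includes the difference between genotypes. ASK1f/f replicate 5, with the highest Map3k5 level, had the second lowest Igfals level, and ASK1f/f replicate 3 had the highest Igfals level and the second lowest Map3k5 level.

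Igfbp2 was set beside Fgf21, the hepatokine gene with the lowest adjusted p of 0.355 in limma. Fgf21 was between 2.46 and 4.74 FPKM in ASK1f/f and between 7.40 and 30.1 FPKM in ASK1+hep, and as the genotypes form separate clusters no pooled correlation is given. In ASK1+hep, the 3 livers with the most Fgf21, replicates 2, 3 and 4, were also those with the most Igfbp2. In ASK1f/f no such order was seen, since replicate 3 had the lowest Fgf21 and the highest Igfbp2 level. With 5 livers per genotype, no correlation within a genotype is given.

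**Figure D4:**
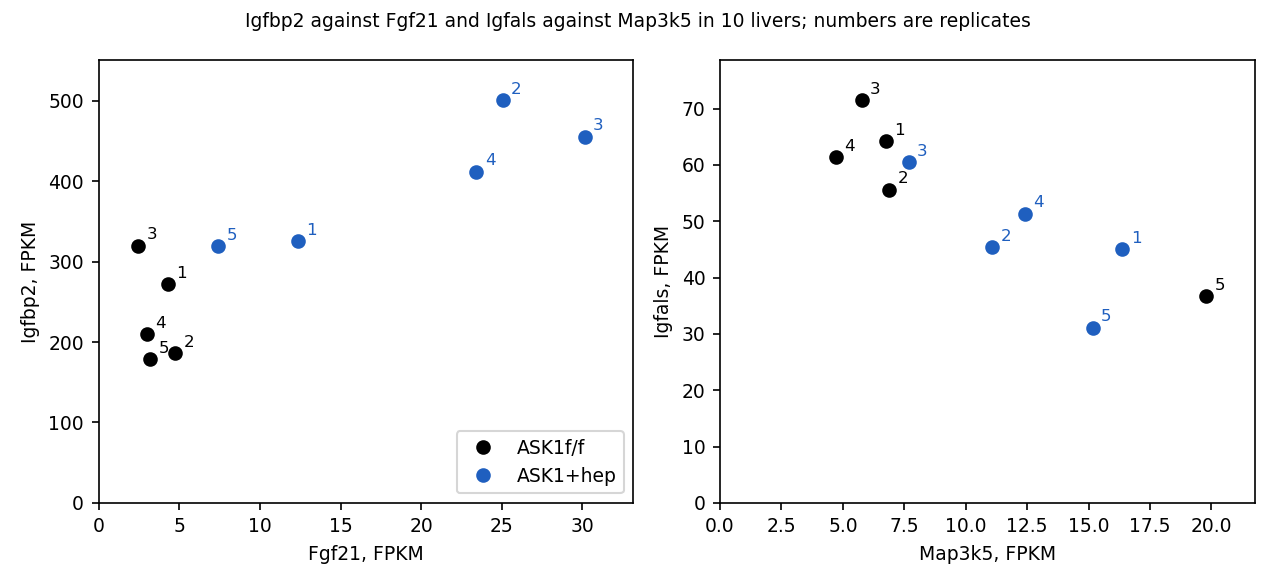
Left, Igfbp2 against Fgf21, and right, Igfals against Map3k5, in FPKM on linear axes, for ASK1f/f (black) and ASK1+hep (blue) livers with their replicate numbers. Over the 10 livers Igfals was lower where Map3k5 was higher, while ASK1f/f replicates 1 to 4 alone, between 4.71 and 6.88 FPKM of Map3k5, show no clear order, with ASK1f/f replicate 5 at the far right at 19.8 FPKM of Map3k5 and 36.7 FPKM of Igfals.

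For Igf1, the genes with the most similar pattern over the 10 livers were Hilpda, Hand2 and Hs3st3a1, with r of 0.940, 0.937 and 0.933. For Igfbp1 they were Bmp1 (0.941), Tat (0.930), the tyrosine aminotransferase gene, and Afdn (0.926). For Igfbp2 they were Gtf3c2 (0.912), Eif5b (0.911) and Pin4 (0.911), and for Socs2 they were Slc39a3 (0.985), Slc25a1 (0.984) and Zdhhc7 (0.980). The high values of Socs2 lean on its single high liver.

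Lists of related genes were read beside these 10. For genes of these lists near or under 1 FPKM, the pseudocount of 1 FPKM understates the log2 fold change. Of 14 other IGF ligands, receptors, binding proteins and IGFBP proteases, 9 passed the filter, of which 3 were higher and 6 lower, with 0 at an unadjusted p under 0.05 and a median log2 fold change of -0.010. Igf2, the fetal ligand, had at most 2 reads in any liver. The named genes of this list were Igfbp5 at 1.51 and 1.01 FPKM (means of ASK1f/f and ASK1+hep, log2 fold change -0.30), the insulin receptor substrate Irs2 at 2.33 and 2.81 FPKM (0.18, and 0.042 without ASK1+hep replicate 2) and Irs1 at 0.522 and 0.445 FPKM (-0.09).

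Of 16 genes of growth hormone receptor signalling and its brakes, 15 passed the filter, 5 higher and 10 lower, with 0 at an unadjusted p under 0.05 and a median log2 fold change of -0.083. Jak2, the kinase of the receptor, was at 2.76 and 2.32 FPKM (log2 fold change -0.21, and -0.093 without ASK1+hep replicate 3), the leptin receptor gene Lepr at 0.480 and 0.783 FPKM (0.25) and the adaptor gene Grb10 at 0.405 and 0.324 FPKM (-0.09). Adjusted p-values of these 3 genes lay between 0.812 and 0.821 in limma.

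In males, growth hormone is released in pulses, and many liver genes follow this pattern through STAT5B. The livers were male by their transcripts, with Xist at most at 0.0129 FPKM and Ddx3y at least at 6.02 FPKM. Of 15 male-biased genes of this kind all 15 passed the filter, 7 higher and 8 lower. At an unadjusted p under 0.05 in limma 2 were higher and 1 lower, beside 5.77% of all genes tested. After adjustment 0 remained, and the median log2 fold change was -0.0095, beside -0.0065 over all genes tested. Elovl3, a fatty acid elongase, was at 84.4 ± 41.0 FPKM in ASK1f/f livers and 128 ± 22.4 FPKM in ASK1+hep (SD, n = 5 each), with a log2 fold change of 0.69. ASK1f/f replicate 5 was at 157.1 FPKM, against 61.0 to 76.5 FPKM in the other ASK1f/f livers. Without it the log2 fold change was 0.93, with an unadjusted p of 6.25e-05 and an adjusted p of 0.166 in limma. Egfr, the epidermal growth factor receptor, was at 49.7 ± 8.65 and 38.9 ± 4.32 FPKM (SD, n = 5 each), with a log2 fold change of -0.34. Cspg5 was at 0.157 and 0.349 FPKM, a log2 fold change of 0.22. The pseudocount of 1 FPKM understates this difference, which ranged from 0.17 to 1.15 over the alternatives. In limma each of the 3 genes had an adjusted p of 0.812.

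Of 16 female-biased genes 12 did not pass the filter, 11 of them with at most 22 reads in any liver and Cyp2b9 with up to 105. The remaining 4 were 2 higher and 2 lower, with a median log2 fold change of 0.30. Cyp17a1, a steroid-metabolizing cytochrome P450, was at 16.6 ± 4.65 FPKM in ASK1f/f livers and 34.0 ± 10.5 FPKM in ASK1+hep (SD, n = 5 each), with overlapping groups. Its log2 fold change was 0.97 (standard error 0.23), its unadjusted p from limma 0.00132 and its adjusted p 0.712. Acot3 was at 1.33 and 2.55 FPKM (log2 fold change 0.67), and Cyp2c40, which belongs to a family of near-identical copies and is therefore uncertain, at 1.04 and 0.912 FPKM (-0.09).

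Of 10 genes regulated by insulin and fasting all 10 passed the filter, 6 higher and 4 lower. At an unadjusted p under 0.05 in limma 1 was lower, beside 5.77% of all genes tested. After adjustment 0 remained, and the median log2 fold change was 0.16, beside -0.0065 over all genes tested. The gene at an unadjusted p under 0.05 was Pik3r1, the regulatory subunit of PI3 kinase. It was at 8.35 ± 1.45 and 6.03 ± 1.74 FPKM (SD, n = 5 each) with a log2 fold change of -0.43. The kinase gene Pdk4 was at 0.884 and 1.26 FPKM (0.27), and Trib1 at 9.94 and 11.7 FPKM (0.23).

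**Figure D5:**
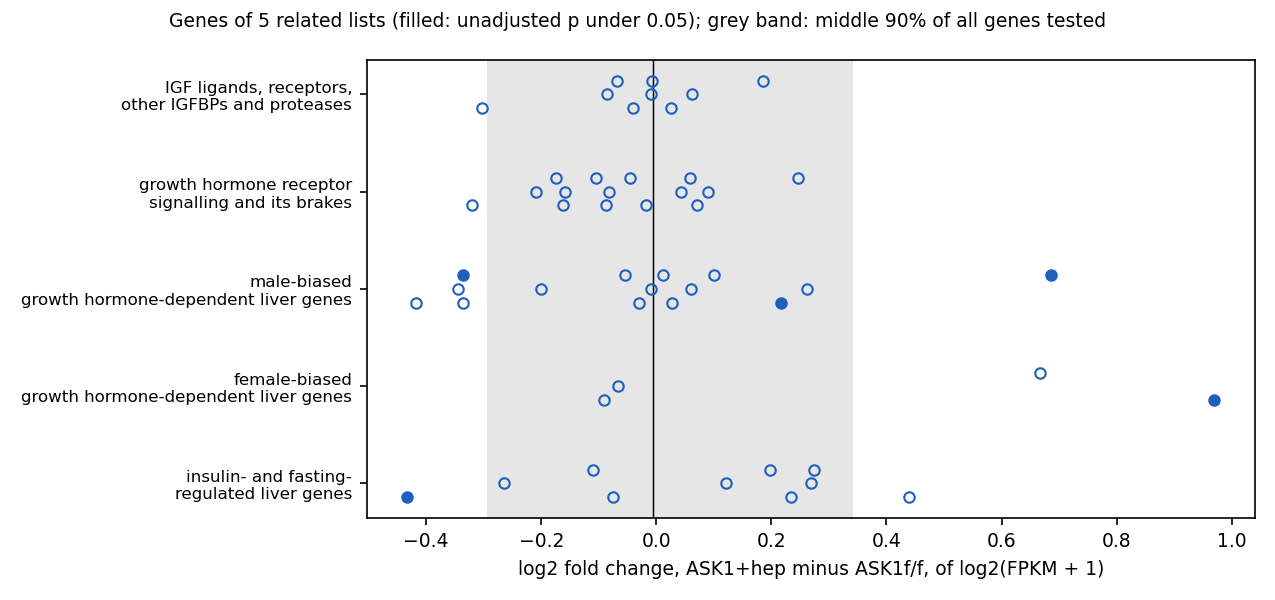
Log2 fold change (ASK1+hep minus ASK1f/f, on log2(FPKM + 1)) of every gene that passed the filter in 5 related lists, with filled points for an unadjusted p under 0.05 and a grey band for the middle 90% of all genes tested, from -0.29 to 0.34. The filled points are Elovl3, Cspg5 and Egfr in the male-biased list, Cyp17a1 in the female-biased list and Pik3r1 in the insulin and fasting list.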

How the data were processed

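Liver RNA of 10 separately tagged mice was sequenced. Per the methods of the study, mRNA was purified with poly-T beads, Hisat2 mapped the reads and FeatureCounts assigned them to genes. The authors deposited FPKM per gene, and the submitters' processing notes name fastp. Build and annotation are not given in the sources used here. GENCODE M21 (GRCm38) held 54495 of the 54532 genes, 98.3% of them with identical coordinates. Each FPKM times gene length was a multiple of the library's smallest step (largest distance from whole 0.000187 reads), which gave the reads used for depth (13367742 to 16163378 per liver), filter and limma-voom. As the deposited values are FPKM, the main comparison used limma on a log scale, and limma-voom on the recovered reads was an alternative. All libraries differed by more than sampling noise (lowest chi-square per degree of freedom 19.1).

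Genotypes came from the labels. The filter asked for 10 reads or more, at the depth of the median library, in 5 livers or more, and for 15 in total. Log2(FPKM + 1) values were compared with limma 3.58.1 (R 4.3.3; mean-variance trend, no covariate), with Benjamini-Hochberg adjustment over 13306 genes and a threshold of 0.05. Such fold changes understate those of low genes. Single genes were compared with exact two-sided permutation tests. Scripts were tested on simulated data. Named were the 10 genes, Map3k5 and Fgf21, up to 3 genes per list with the lowest unadjusted p, and the 3 genes most similar to Igf1, Igfbp1, Igfbp2 and Socs2. The genes and lists were chosen with earlier results of these data known. Alternatives left out the filter, asked for 10 reads in all livers, or used a pseudocount of 0.1, limma-voom with and without quality weights, scaling by all reads, the replicate block, the animal tag prefix (CC or SN) as a covariate, or CC-tagged livers only, and each liver was left out in turn. Python 3.11 and matplotlib 3.10.9 were used.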

Additional observations from a re-analysis of the deposited data

Results flagged for a closer look

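Within each genotype, the highest or lowest liver was compared with the spread of the other livers for the genes named, and 7 of 54 groups of 5 held a liver whose gap to its nearest neighbour exceeded 0.71 of the whole range. Chance would give about 1 in 20 such groups if the values were independent and normally distributed. FPKM were compared without a log scale and the groups share livers, so the counts cannot be read against that rate. Among the 10 genes of the IGF system and growth hormone targets there were 2 in 20 groups. Igfbp1 was at 170.5 FPKM in ASK1f/f replicate 2, with a gap of 0.772 of the range, and Socs2 at 4.75 FPKM in replicate 3 of ASK1+hep (gap 0.736). The other 5 were Map3k5 at 19.8 FPKM in ASK1f/f replicate 5 (gap 0.856), against the label of that library, Irs2 at 4.54 FPKM in ASK1+hep replicate 2 (0.762), Jak2 at 2.26 FPKM, the lowest, in ASK1f/f replicate 2 (0.822), Elovl3 at 157.1 FPKM in ASK1f/f replicate 5 (0.838) and Trib1 at 13.99 FPKM in ASK1f/f replicate 2 (0.784). Of the 7 livers, ASK1f/f replicate 2 gave Igfbp1, Jak2 and Trib1, and ASK1f/f replicate 5 gave Map3k5 and Elovl3.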

How the results depend on the processing

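No gene of the IGF system or growth hormone targets passed the adjusted threshold in any of 19 alternatives. The number of all genes at adjusted p was 0, and 1 with quality weights in limma-voom; leaving out each liver gave 0 to 1 (1 without ASK1+hep replicate 5). Of all genes, 768 were at an unadjusted p under 0.05, but 1222 with no filter and 557 to 1724 on leaving out each liver (1724 without ASK1+hep replicate 5, 1178 without ASK1+hep replicate 1). Of the 10 genes, 1 was at an unadjusted p under 0.05, and 2 were with quality weights (Igfbp2 and Igfals), scaling by all reads and CC-tagged livers only (Igfbp2 and Stat5b in both), and 1 to 2 on leaving out each liver (2 without ASK1f/f replicate 3 or 5 or ASK1+hep replicate 1, 2 or 3). Igfbp2 kept its direction and an unadjusted p under 0.05 in all 19, with a log2 fold change of 0.71 to 0.93 and an adjusted p of 0.383 to 0.917. Igfals, Ghr, Cish and Stat5b also stayed lower in all 19. The changed filters, the replicate block and the tag prefix covariate left each log2 fold change as it was, so that they could change only its p. Reversed were Igf1 (0.015) and Igfbp3 (0.064) in CC-tagged livers, Igfbp1 (0.18), Igfbp4 (-0.0028) and Socs2 (-0.065) with quality weights, Igfbp4 (-0.050) under scaling by all reads, and Cyp2c40 (0.072) in CC-tagged livers. Leaving out each liver gave -0.13 to 0.052 for Igf1, -0.52 to 0.27 for Igfbp1, -0.24 to 0.15 for Igfbp3, -0.051 to 0.097 for Igfbp4, -0.16 to 0.33 for Socs2, -0.15 to 0.0082 for Irs1 and -0.18 to 0.0012 for Cyp2c40. Without a change of direction it gave -0.46 to -0.17 for Igfals, -0.21 to -0.089 for Ghr, -0.58 to -0.28 for Cish, 0.042 to 0.27 for Irs2, -0.45 to -0.17 for Igfbp5, -0.32 to -0.093 for Jak2, -0.14 to -0.047 for Grb10 and 0.14 to 0.36 for Pdk4; the cause was not tested. Scaling by all reads moved the median log2 fold change of all genes from -0.0065 to -0.052 and the percentage of genes at an unadjusted p under 0.05 that were higher in ASK1+hep from 52.9% to 31.4%.

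Same-numbered livers correlated at 0.0212 to 0.174 in their deviations from the group means (mean 0.107, against -0.0275 for other pairs), and 6 of 10 livers correlated best with their own number. In 4 of the 5 pairs the animal tags were adjacent, but the labels do not say what a number or tag marks, so that the numbers were not taken as a pairing. With the replicate block, 2 of the 10 genes (Igfbp2 and Igfals) were at an unadjusted p under 0.05 (Igfals 0.0185, adjusted p = 0.727 in limma), as were Lepr (0.0214) and Pdk4 (0.0493) of the lists, and 0 genes passed the adjusted threshold. Depth limits Cish most, at 18 to 195 reads per liver.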
